A study of Homo sapiens with 9 samples.

Results

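The regions described here are the 1 kb windows of human chromosomes 1 to 22 that lay inside a listed H3K9me3 domain in all 8 libraries of a Cut&Run series. They were chosen by that presence alone, from 8 deposited domain lists whose domains all start on a 1000 bp grid. They number 166326 windows (166.326 Mb) of the 767046 autosomal windows listed in at least 1 library, which is 21.7% of the listed windows and 5.79% of the autosomes up to the last listed window. Adjacent windows were joined into 6972 blocks. Because the windows were selected on the lists, their presence in every library is a description and not a result.

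The cells were hTERT RPE-1, a telomerase-immortalised human cell line from the pigment epithelium of the retina, stably overexpressing either mCherry alone or mCherry fused to lamin B1 (LmnB1). Clones LmnB1_16 and LmnB1_6 carried the fusion and clones mCherry_3 and mCherry_4 the control, each with biological replicates 1 and 2, so each construct is 4 libraries but only 2 clones. Per the labels, cells of both groups received doxycycline at 0.05 ug/mL for 24 hours. A wild-type input library served as the shared control of all lists and is not analysed here on its own.

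H3K9me3 is trimethylation of lysine 9 of histone H3, a mark of constitutive heterochromatin that is written by enzymes such as SETDB1 and SUV39H1 and bound by HP1 proteins. It is known for silencing repeats, gene-poor chromatin, and clusters of tandemly repeated genes such as KRAB zinc finger genes. Lamin B1 is a filament protein of the nuclear lamina, to which much of this chromatin is attached. The files hold a histone mark and no RNA, so neither the overexpression nor the identity of the cells was checked here.

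All enrichment values below are the authors' log2 enrichment over input of the whole domain that holds a window, not of the window itself. H3K9me3 reads inside domains ranged from 2855378 in mCherry_4 replicate 1 to 10321442 in LmnB1_16 replicate 1. Relative to input, depth was 0.880 to 1.01 with LmnB1 and 0.421 to 0.859 with mCherry, so depth and construct cannot be told apart. A domain is listed only above a log2 enrichment of 0.6, and absence from a list does not show that reads were absent.

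The share of listed windows was high at both ends of the range of libraries. Windows listed in 1 library made up 129.004 Mb and those in 2 libraries 110.289 Mb, while those in 3, 4 and 5 libraries made up 43.099, 42.89 and 49.575 Mb. Windows in 6 and 7 libraries then made up 87.81 and 138.053 Mb, below the 166.326 Mb in all 8. The count in all 8 is set mainly by the shortest lists. Of the 138053 windows found in 7 libraries, 69590 (50.4%) were missing from LmnB1_6 replicate 2 alone, 45757 (33.1%) from mCherry_4 replicate 2 alone and 16042 (11.6%) from mCherry_4 replicate 1 alone. The other 5 libraries each lacked between 154 and 2063 of these windows.

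Each library was also held out in turn, with windows chosen on the other 7. Of the windows listed in all 7 others, 99.9% and 99.4% were listed in LmnB1_16 replicates 1 and 2, against 73.1% and 66.5% of the windows listed in any of the 7. For LmnB1_6 replicates 1 and 2 the values were 99.0% and 70.5%, against 78.4% and 45.5%. For mCherry_3 they were 99.0% and 98.8%, against 63.1% and 62.9%, and for mCherry_4 91.2% and 78.4%, against 51.9% and 39.3%. The held-out share was lowest in LmnB1_6 replicate 2. The windows listed in any of the 7 include those of 1 library, so a higher held-out share is largely built in. Of the windows listed in 6 of the other 7, LmnB1_16 replicates 1 and 2 listed 99.4% and 98.4%, LmnB1_6 replicates 93.5% and 50.3%, mCherry_3 replicates 96.4% and 96.1%, and mCherry_4 replicates 83.9% and 60.01%.

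**Figure D1:**
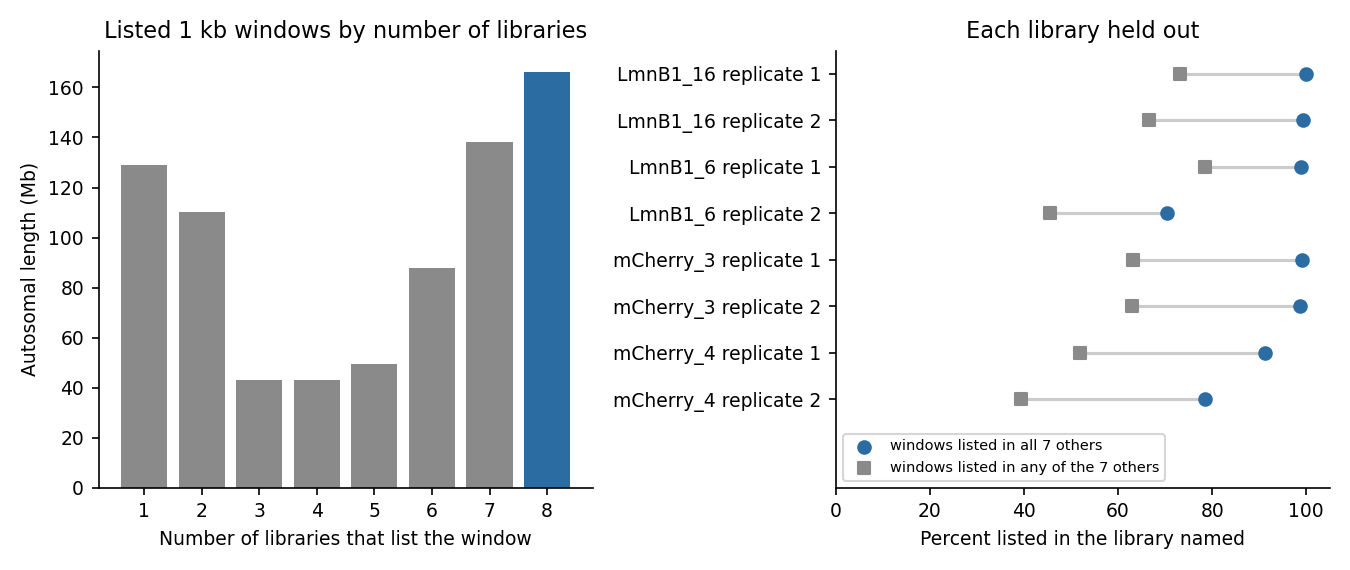
Left, autosomal length in Mb (bars) of the 1 kb windows listed in 1 to 8 libraries, with the windows listed in all 8 in blue. Right, for each library, the percent of windows listed in all 7 other libraries (circles) and in any of the 7 others (squares) that this library lists; the circles lie between 70.5% and 99.9%, each to the right of its square.

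Blocks were short, and by the rule none can be longer than a domain that holds it. Their median length was 17 kb, with quartiles of 9 and 31 kb, and their mean 23.9 kb. Blocks of a single window numbered 210, and 5015 blocks were at least 10 kb long. Only 113 blocks reached 100 kb, with 15.103 Mb or 9.08% of the windows, and 8 reached 200 kb. Windows were split evenly by length at 37 kb, with 50% in blocks of at least that size. Also counted over windows, the domain that held a shared window had a median length of 89 and 100 kb in the mCherry_4 libraries. It was 546 and 578 kb in mCherry_3, 128 and 606 kb in LmnB1_6 and 810 and 1049 kb in LmnB1_16.

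Blocks lay close together. Of the 6950 gaps between neighbouring blocks of a chromosome, 4341 (62.5%) were under 10 kb, and the median gap was 6 kb. Joining blocks less than 10 kb apart left 2631 regions, of which 3 reached 1 Mb. The longest joined region was chr1:72917001-74156000, 1239 kb of which 91.3% was shared windows, and it reached into LRRIQ3, a leucine-rich repeat gene. The others were chr13:61093001-62114000, which holds the protocadherin gene PCDH20, and chr5:117536001-118537000, which holds no protein-coding gene.

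**Figure D2:**
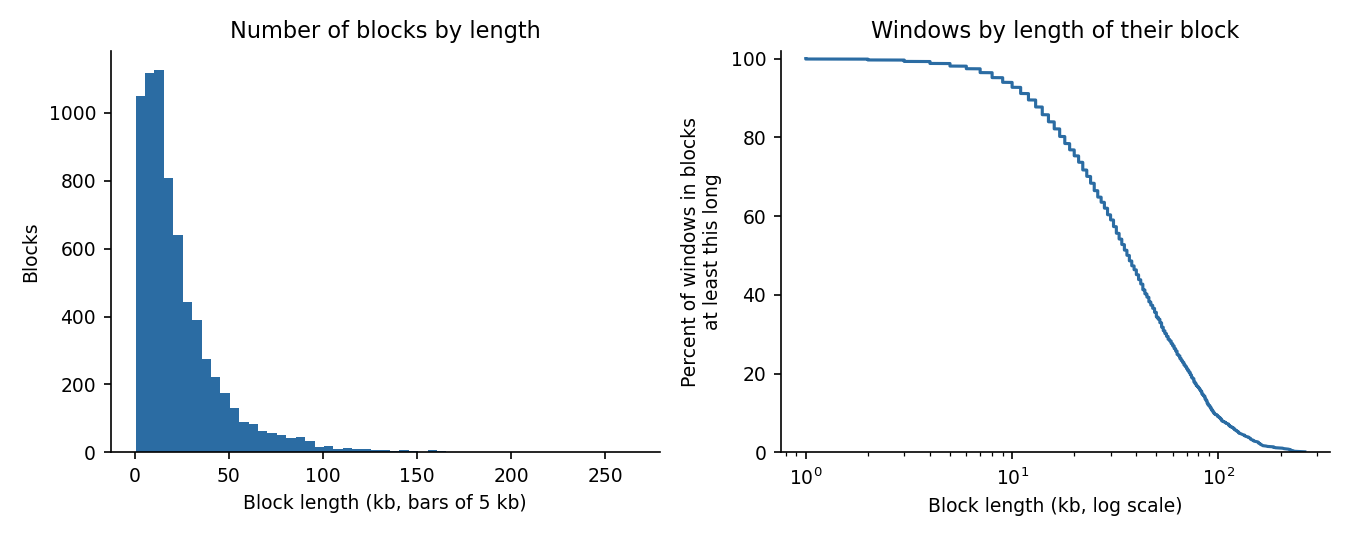
Left, number of blocks by length in bars of 5 kb. Right, percent of shared windows lying in blocks of at least the length on the x axis (kb, log scale). Most blocks are under 31 kb, and 50% of the windows lie in blocks of at least 37 kb.

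The longest block, of 262 kb, was chr21:29942001-30204000 and contained CLDN17, a claudin of tight junctions. For replicates 1 and 2, its log2 enrichment was 0.91 and 0.91 in clone mCherry_3, 0.87 and 0.68 in clone mCherry_4, 1.32 and 1.09 in clone LmnB1_16, and 1.02 and 0.73 in clone LmnB1_6. LmnB1_16 replicate 1 was the highest of the 8 and mCherry_4 replicate 2 the lowest, and the constructs overlapped. In LmnB1_16 replicate 1 the block was part of a domain of 1145 kb with 21256 H3K9me3 reads and 9704 input reads, and in mCherry_4 replicate 1 part of a domain of 271 kb with 1817 and 2358 reads. The raw read ratios of both libraries, 2.19 and 0.77, differ more than their log2 values because the deposited log2 value also corrects for depth.

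Most of the other longest blocks held no protein-coding gene. On chromosome 12 they were chr12:37817001-38049000 (232 kb), chr12:37605001-37813000 (208 kb) and chr12:73700001-73904000 (204 kb). The first of these pairs with the second across a gap of 4 kb, and both took their value from the same domain in 7 of 8 libraries. Also without a gene were chr13:61528001-61758000 (230 kb), chr10:85132001-85355000 (223 kb), chr2:22440001-22663000 (223 kb), chr1:73450001-73668000 (218 kb) and chr19:27299001-27484000 (185 kb). The 189 kb block chr12:61593001-61782000 covered part of TAFA2, which encodes a secreted chemokine-like protein of the nervous system. Mean log2 enrichment over the 8 libraries ran from 0.85 ± 0.16 (SD) on chromosome 10 to 1.06 ± 0.22 at TAFA2. The chromosome 10 and chromosome 19 blocks had 12.6 and 12.4 input reads per kb, above the 8.36 to 9.48 of the other 8.

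The most enriched blocks were much shorter and most held zinc finger genes. Among the blocks of at least 10 kb, the highest was chr7:99528001-99544000 in ZKSCAN5, which encodes a KRAB and SCAN domain zinc finger protein. Its log2 enrichment was 1.49 and 1.85 in clone mCherry_3, 1.43 and 1.07 in clone mCherry_4, 2.18 and 1.90 in clone LmnB1_16, and 1.87 and 1.21 in clone LmnB1_6. Again the constructs overlapped and the second replicates of LmnB1_6 and mCherry_4 were lowest. The H3K9me3 reads behind these values ranged from 156 in mCherry_4 replicate 1 to 631 in LmnB1_16 replicate 1, over domains of 16 to 23 kb.

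Of the 10 most enriched blocks, 6 held a C2H2 zinc finger gene. Besides ZKSCAN5 these were blocks at ZNF12 (33 kb, mean log2 1.60 ± 0.33), USP6 with ZNF594 (15 kb, 1.52 ± 0.38), ZFP90 (31 kb, 1.51 ± 0.36), ZNF7 with COMMD5 (13 kb, 1.40 ± 0.31) and ZFP69B (24 kb, 1.40 ± 0.31). A 10 kb block lay in ANO1, a calcium-activated chloride channel gene, at chr11:70036001-70046000 with a mean of 1.59 ± 0.31. An 11 kb block at FOXO3B, a copy of the forkhead factor gene FOXO3, reached 1.58 ± 0.31. The remaining 2 blocks, chr6:30277001-30288000 and chr5:66102001-66114000, held no protein-coding gene and reached 1.52 ± 0.36 and 1.41 ± 0.36.

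The shared windows were unevenly spread over the chromosomes. Chromosome 5 had the greatest length, 13.722 Mb. As a share of the windows listed in any library, chromosome 15 was highest at 37.0%, followed by 17 at 30.9% and 12 at 30.8%. Chromosome 18 was lowest, with 1.622 Mb or 5.38%, and chromosome 10 followed with 11.0%. On chromosome 18 LmnB1_6 replicate 2 listed 3.189 Mb, against 15.46 to 24.828 Mb in the other 7 libraries. Of the 8986 chromosome 18 windows found in 7 libraries, 8262 were missing from that library alone. On chromosome 10 the same library listed 13.025 Mb and mCherry_4 replicate 2 listed 14.158 Mb, against 27.077 to 36.587 Mb elsewhere.

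Chromosome ends held a small part of the windows, over a small part of the length. Summed over the autosomes, the first and the last 5 Mb spanned 110 Mb each, against 2650.96 Mb between. They held 4.50% and 5.18% of all shared windows. The first 5 Mb of each chromosome held 7.488 Mb of shared windows, 28.6% of the windows listed there, and the last 5 Mb before the last listed window held 8.614 Mb, 21.5% of those listed there. Between them lay 150.224 Mb, or 90.3% of all shared windows and 21.4% of those listed there.

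**Figure D3:**
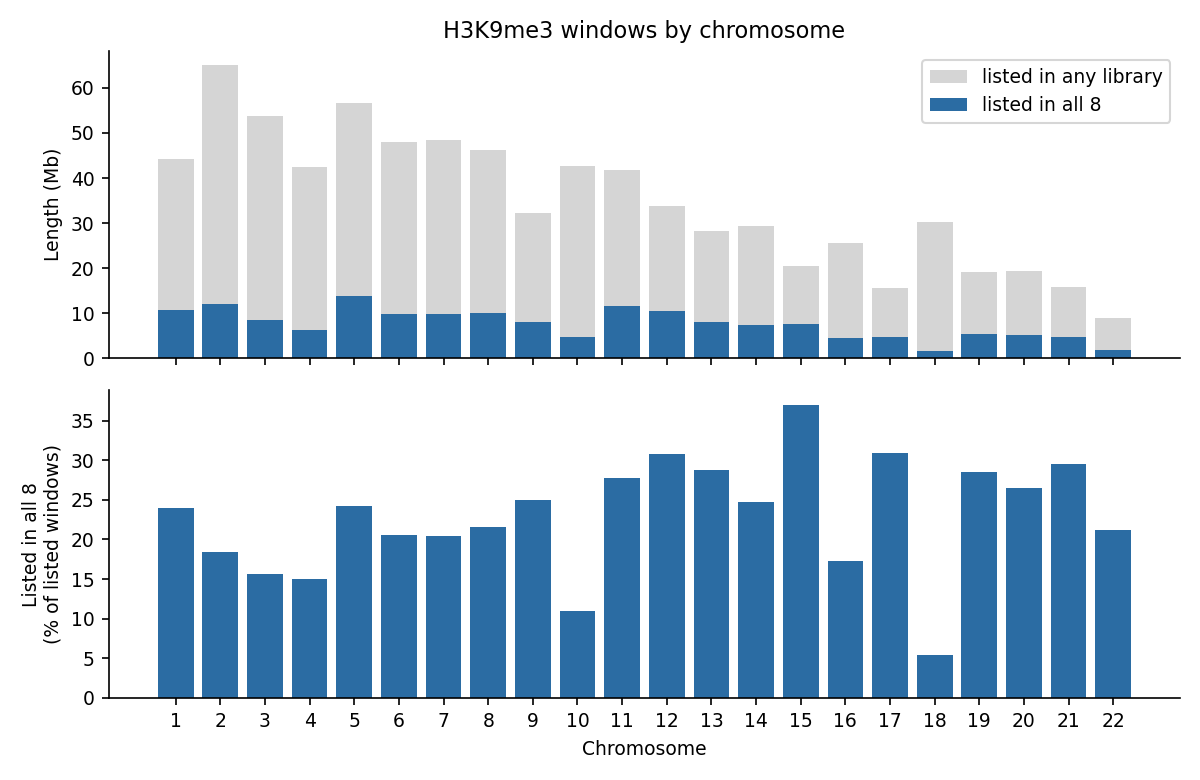
Top, Mb of windows listed in any library (grey) and in all 8 (blue) on each autosome. Bottom, shared windows as a percent of listed windows; chromosome 15 is highest at 37.0% and chromosome 18 lowest at 5.38%.

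Enrichment inside the shared windows was above that of the remaining listed windows of the same library in 8 of 8 libraries. Mean log2 was 1.25 against 1.11 and 1.02 against 0.92 in LmnB1_16, and 1.01 against 0.91 and 0.72 against 0.70 in LmnB1_6. It was 0.95 against 0.88 and 0.93 against 0.86 in mCherry_3, and 0.91 against 0.83 and 0.74 against 0.71 in mCherry_4. The smallest gap was 0.02, in LmnB1_6 replicate 2, and the widest 0.15, in LmnB1_16 replicate 1. The rule used the lists that these values also define, so the gap is a description. Windows just outside, listed in 7 libraries, had means of 0.70 (LmnB1_6 replicate 2) to 1.17 (LmnB1_16 replicate 1) where listed. The lowest value of any shared window was 0.60 in mCherry_4 replicate 2 and 0.62 in LmnB1_16 replicate 1. Input depth hardly differed between libraries over the shared windows, at 8.41 to 8.47 input reads per kb, while H3K9me3 reads ran from 6.68 per kb in mCherry_4 replicate 1 to 17.9 in LmnB1_16 replicate 1.

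The constructs overlapped in mean enrichment over the shared windows. It was 1.00 ± 0.22 with LmnB1 and 0.88 ± 0.10 with mCherry (SD, n = 4 libraries each), a log2 difference of 0.121 that is smaller than the spread among the LmnB1 libraries. The difference was 0.0367 without LmnB1_16 replicate 1, 0.0742 without mCherry_4 replicate 2 and 0.195 without LmnB1_6 replicate 2. With each library's mean over all its listed windows subtracted it was 0.0257. Blocks of 1 to 9 kb averaged 0.94 ± 0.15 and blocks of 100 to 262 kb 0.97 ± 0.20 over the 8 libraries, but single libraries went different ways. The value was 1.22 in the short and 1.33 in the long blocks of LmnB1_16 replicate 1, 0.99 and 1.06 in LmnB1_6 replicate 1, and 0.76 and 0.73 in mCherry_4 replicate 2.

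To compare the constructs around these regions, enrichment was averaged in 500 kb bins and compared with limma. Each bin value was the mean over all windows that the library listed there, shared or not. The windows averaged therefore differed between libraries, and the bins do not test the shared windows alone. Of 1194 bins with enough listed windows in every library, 274 had at least 50% of their windows listed in all 8, and these held 93808 of the shared windows. With the clone as a random block, limma called 0 of the 1194 bins at an adjusted p under 0.05, that is 0% of those tested, and so 0 of the 274; the smallest adjusted p was 0.640. At an unadjusted limma p under 0.05 there were 64 bins (5.36% of those tested), 13 of them among the 274. LmnB1 was nominally higher in 178 of the 274 bins and lower in 96, with a median difference of 0.03 beside -0.0024 over all tested bins. Each library's median over the tested bins was subtracted before the fit, so a small median difference over all tested bins was built in. Without this centring the median difference was 0.130 in the 274 bins and 0.098 over all tested bins. Neighbouring bins can lie in the same domain, so bins are not independent, and the direction counts were not tested. The standard error of the difference in a single bin had a median of 0.04 over the 274. The libraries of the constructs did not overlap, with LmnB1 higher, in 10 of the 274 bins, beside 49 (4.10%) of all tested bins, and with LmnB1 lower in 11, beside 48 (4.02%).

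The unadjusted counts moved most with the libraries of clone LmnB1_6. Without LmnB1_6 replicate 2 limma gave an unadjusted p under 0.05 in 276 bins, 80 of them among the 274, and without LmnB1_6 replicate 1 in 13 bins. With no clone block it did so in 203 bins, and without centring in 23. None of these fits called a bin after adjustment.

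The bin with the smallest limma p among the 274 was chr4:189500001-190000000, near the end of the long arm of chromosome 4. Its log2 enrichment relative to the library's median bin was 0.42 and 0.35 in clone LmnB1_16 and 0.40 and 0.21 in clone LmnB1_6, against 0.12 and 0.11 in clone mCherry_3 and 0.09 and 0.03 in clone mCherry_4. Every LmnB1 value lay above every mCherry value, by a mean of 0.25 (SE 0.07), but limma's adjusted p over all bins was 0.640. The next were chr19:12000001-12500000, a stretch of the chromosome 19 zinc finger clusters, with a difference of 0.15 (SE 0.05), and chr1:5000001-5500000 with 0.21 (SE 0.07). In the other direction, chr8:63500001-64000000, chr3:68000001-68500000 and chr5:52000001-52500000 had differences of -0.08, -0.10 and -0.07. None of these passed the adjustment in limma (adjusted p = 0.640 for each).

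Protein-coding genes were sparse in the shared windows. Of the 6972 blocks, 2143 (30.7%) touched a protein-coding gene, and 32.2% of the windows lay in such blocks. A gene body covered 28.5% of the shared windows (on the autosomes except chromosome 8), 28.5% of the windows listed in 7 libraries and 47.6% of the windows listed in none. Gene starts were rarer still, with 1.09 per Mb in shared windows, 1.32 per Mb in windows of 7 libraries, 2.31 per Mb in windows of 1 library and 6.90 per Mb in windows listed in none. Of 19126 autosomal protein-coding genes, 641 (3.35%) touched a shared window, 336 had over 50% of their length in them and 123 lay wholly inside.

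The genes wholly inside fell largely into gene families that sit in tandem clusters. Of the 123, 42 were olfactory receptor genes, 26 keratin-associated protein genes and 18 C2H2 zinc finger genes, as classed by symbol. These were 10.7%, 27.7% and 3.24% of their lists, beside 0.643% of all protein-coding genes. A shorter gene lies wholly inside more easily. Median lengths in these lists were 2974 bp, 828.5 bp and 23398.5 bp, beside 24476.5 bp over all genes. Members of such families resemble one another, and the sources used here do not say how reads that match several copies were treated. Among 80 ribosomal protein genes 0 touched a shared window, and among 87 histone genes, taken by symbol, 1 did (H2BN1, 1.15% of the list). Of 21 genes for H3K9 methylation and the lamina 0 did, and of 15 markers of retinal pigment epithelium 0 did, but with 3.35% of all genes touching, lists of this size have few or no such genes. Of 17529 genes in none of the 14 families and groups other than cell type markers, 320 (1.83%) touched a shared window.

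C2H2 zinc finger genes encode DNA-binding proteins, many of them KRAB repressors that recruit H3K9 methylation to repeats. Of 556, 191 (34.4%) touched a shared window, beside 3.35% of all protein-coding genes, and 120 (21.6%) had over 50% of their length inside. Chromosome 19 held 123 of the 191, out of 265 zinc finger genes there. The longest that lay wholly inside was ZNF578 (63330 bp, chr19:52453553-52516882), with a mean log2 enrichment of 1.09 ± 0.25 over the 8 libraries. ZNF141 (47055 bp, chr4:337814-384868) had 1.24 ± 0.29, its values running from 0.81 in mCherry_4 replicate 2 to 1.70 in LmnB1_16 replicate 1. ZNF257, ZFP82, ZSCAN18, ZNF726 and ZNF829 on chromosome 19 and ZNF140 on chromosome 12 followed, between 27004 and 38997 bp long, with mean log2 values from 0.80 (ZNF726) to 1.21 (ZNF140).

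Blocks with a zinc finger gene were also the most enriched class. The 199 such blocks, of 5.209 Mb, averaged a log2 of 1.04 and 1.04 in clone mCherry_3, 1.01 and 0.80 in clone mCherry_4, 1.47 and 1.19 in clone LmnB1_16, and 1.17 and 0.83 in clone LmnB1_6. The 4829 blocks with no protein-coding gene averaged 0.94 and 0.92, 0.91 and 0.73, 1.24 and 1.01, and 1.00 and 0.71 in the same order. The zinc finger blocks were higher in 8 of 8 libraries, by 0.06 to 0.23, although the libraries themselves differed more than that. The 35 blocks with olfactory receptor genes, averaged together, were above the gene-free blocks in 8 of 8 libraries by 0.01 to 0.14. This did not hold for each cluster of these genes. Receptor genes wholly inside had mean log2 values of 1.11 to 1.23 on chromosome 1. On chromosome 11 they had 0.79 to 0.88, below the mean of 0.93 in the gene-free blocks. The 8 blocks with keratin-associated protein genes were above the gene-free blocks in 4 of 8 libraries, and the 1901 with other genes in 7 of 8. Input was much the same in zinc finger and gene-free blocks, at 8.54 and 8.45 reads per kb.

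**Figure D4:**
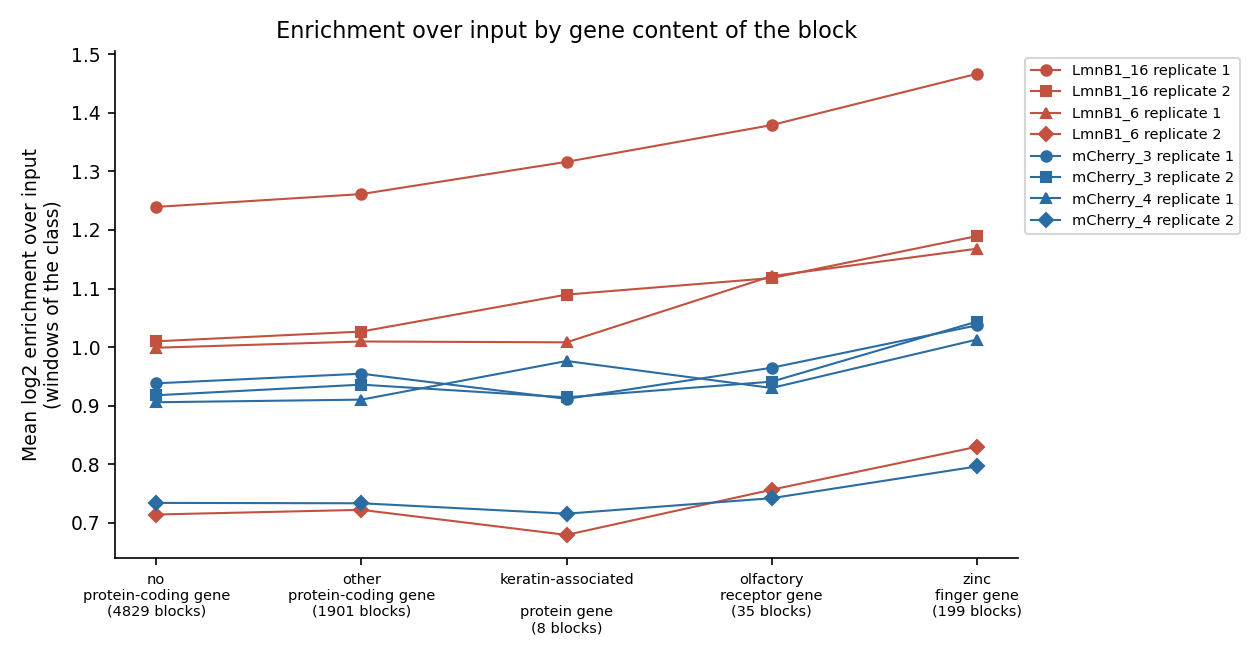
Mean log2 enrichment over input (y axis) of the shared windows in blocks of each gene class (x axis), 1 line per library, LmnB1 in red and mCherry in blue. In every library the zinc finger blocks lie above the gene-free blocks, and the lines of both constructs overlap.

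In zinc finger genes the shared windows favoured the end of the gene. The strand and upstream sequence were found for 15101 of 18411 autosomal genes outside chromosome 8. Of the 467 zinc finger genes among them, 38 (8.14%) had their start in a shared window and 115 (24.6%) their end. For 88 the end alone was inside, for 11 the start alone and for 27 both. Over 409 zinc finger genes of at least 10 kb, the percent of length in shared windows was 9.80 in the first 10% of the gene, 21.9 in the fifth such step and 28.7 in the ninth. In 10705 other genes of at least 10 kb it stayed between 0.808 and 1.07 at every step. Single lists had the same order: the start of a zinc finger gene was listed for 34.9% and its end for 54.6% in LmnB1_16 replicate 1, and for 14.6% and 32.8% in mCherry_4 replicate 2, with the end higher in 8 of 8 libraries.

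**Figure D5:**
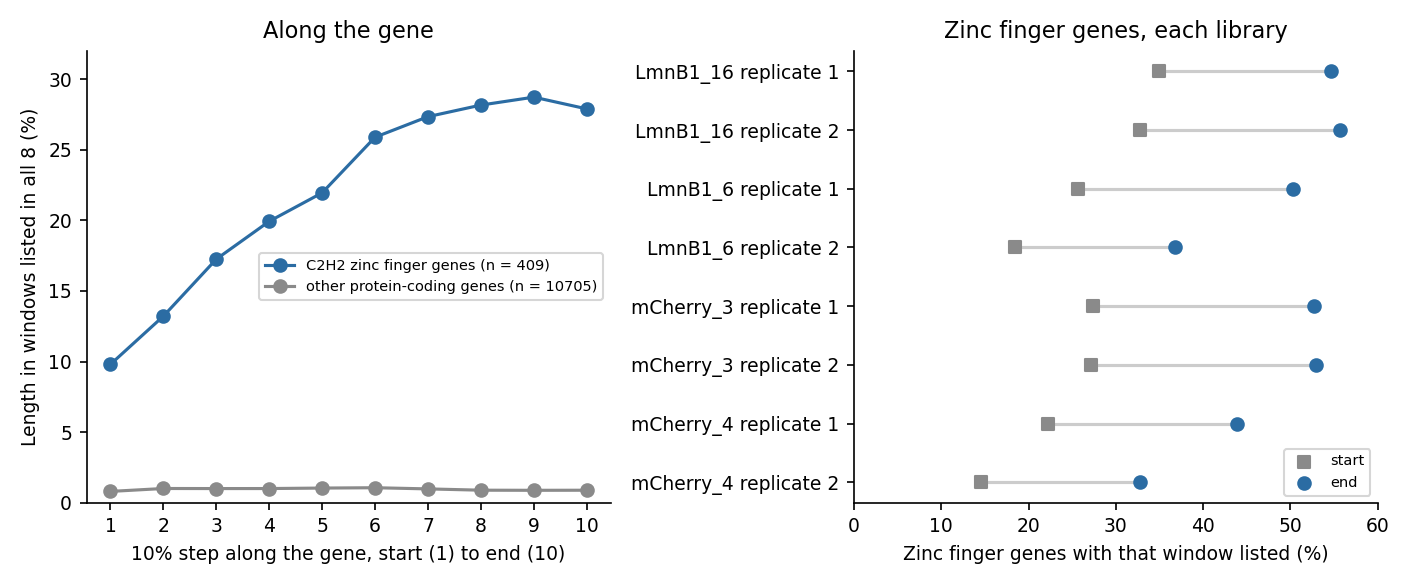
Left, percent of gene length in windows listed in all 8 libraries for each 10% step of the gene from start to end, for 409 zinc finger genes (blue) and 10705 other protein-coding genes (grey) of at least 10 kb. Right, percent of 467 zinc finger genes whose start (squares) and end (circles) window is listed in each library; every circle lies to the right of its square.

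The starts that did lie in shared windows differed widely in upstream CpG between gene families. The sequences of ZNF578 and ZNF141 are shown to compare with those of other families further on. CpG was counted by the dinucleotide CG, which reads the same on both strands, in the 250 bases before the gene start in RefSeq (GRCh38.p14), and CG is in capitals. Upstream of ZNF578 (chr19:52453303-52453552, plus strand) there were 16 CG, and upstream of ZNF141 (chr4:337564-337813, plus strand) 13.
ZNF578: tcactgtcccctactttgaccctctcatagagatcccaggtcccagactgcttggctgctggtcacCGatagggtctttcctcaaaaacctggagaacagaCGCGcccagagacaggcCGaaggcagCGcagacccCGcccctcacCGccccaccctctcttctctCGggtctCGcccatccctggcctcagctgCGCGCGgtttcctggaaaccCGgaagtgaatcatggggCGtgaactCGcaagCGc
ZNF141: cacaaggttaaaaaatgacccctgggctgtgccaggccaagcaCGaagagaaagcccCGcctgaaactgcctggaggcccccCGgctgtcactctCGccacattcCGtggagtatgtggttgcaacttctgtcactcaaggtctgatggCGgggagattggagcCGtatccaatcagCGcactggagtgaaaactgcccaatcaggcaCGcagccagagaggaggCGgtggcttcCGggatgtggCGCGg

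Over the 38 zinc finger genes with a start in shared windows the median was 14.5 CG, beside 17 over all matched zinc finger genes and 17 over all matched genes. The ratio of observed to expected CpG had a median of 0.688 in the 38, beside 0.768 over all matched zinc finger genes and 0.741 over all matched genes. At 0.6 or above were 24 of the 38, beside 66.3% of the gene starts in windows listed in no library. At least 1 CG is present in 96.9% of all matched upstream sequences and in 94.7% of these 38.

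Olfactory receptor genes, which encode the odorant receptors of sensory neurons, had 52 of 391 members (13.3%) touching a shared window and 42 wholly inside. Those wholly inside lay on chromosomes 11 (20), 1 (18), 14 (2) and 6 (2). The longest were OR2T6 (16066 bp), OR2M3 (15661 bp) and OR2M4 (13263 bp) on chromosome 1 and OR5V1 (15117 bp) on chromosome 6. Keratin-associated protein genes, which encode matrix proteins of hair, had 27 of 94 members (28.7%) touching, all of them among the 49 on chromosome 21 and none of the others. KRTAP24-1, KRTAP26-1, KRTAP11-1 and KRTAP13-2 were the longest wholly inside, at 1642, 1192, 937 and 882 bp. These 4 lay within 1 Mb of the longest block, at CLDN17.

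Skeletal myosin genes also lay among the shared windows. MYH2, a fast skeletal myosin heavy chain gene of 28511 bp at chr17:10521148-10549658, lay wholly inside with a mean log2 of 0.91 ± 0.17. MYH4, its neighbour of 26297 bp, lay wholly inside with 0.92 ± 0.16, and 58.1% of MYH1 was inside. MYH2 and MYH1 were 2 of 15 markers of other cell types examined. The remaining muscle marker, ACTA1, did not touch a shared window, and neither did any marker of neurons, liver, germ cells or lymphocytes among them.

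Upstream of these genes CpG was sparse, and their sequences are shown for contrast with the zinc finger promoters, again with CG in capitals. OR2T6 (chr1:248375496-248375745, plus strand) had 0 CG and OR2M3 (chr1:248197015-248197264, plus strand) had 2. KRTAP24-1 (chr21:30282951-30283200, minus strand) and MYH2 (chr17:10549659-10549908, minus strand) had 2 each.
OR2T6: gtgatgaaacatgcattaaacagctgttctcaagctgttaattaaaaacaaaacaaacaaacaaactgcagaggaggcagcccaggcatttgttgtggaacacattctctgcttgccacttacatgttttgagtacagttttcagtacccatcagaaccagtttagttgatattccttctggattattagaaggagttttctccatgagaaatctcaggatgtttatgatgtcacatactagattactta
OR2M3: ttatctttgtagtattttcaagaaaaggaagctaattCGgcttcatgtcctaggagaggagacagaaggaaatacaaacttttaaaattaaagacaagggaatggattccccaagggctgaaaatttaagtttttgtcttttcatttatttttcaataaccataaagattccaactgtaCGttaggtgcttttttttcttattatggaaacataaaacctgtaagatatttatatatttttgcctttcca
KRTAP24-1: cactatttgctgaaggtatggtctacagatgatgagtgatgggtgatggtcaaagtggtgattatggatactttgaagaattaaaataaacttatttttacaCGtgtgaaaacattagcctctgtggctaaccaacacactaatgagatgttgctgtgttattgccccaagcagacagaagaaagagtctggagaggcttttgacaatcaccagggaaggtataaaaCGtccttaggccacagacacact
MYH2: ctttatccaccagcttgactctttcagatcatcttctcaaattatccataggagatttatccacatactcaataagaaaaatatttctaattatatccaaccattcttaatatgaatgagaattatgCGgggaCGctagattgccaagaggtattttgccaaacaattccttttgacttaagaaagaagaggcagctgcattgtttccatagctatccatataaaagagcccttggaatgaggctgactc

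The ratio of observed to expected CpG had a median of 0.205 over the 38 olfactory receptor genes with a start in shared windows, with 1 of 38 at 0.6 or above. It was 0.146 over 24 keratin-associated protein genes, with 0 of 24 at 0.6 or above. Low CpG is general in these families and was not particular to the shared windows, since the medians of all their matched members were 0.132 and 0.135. For the 70 other genes with a start in shared windows the median was 0.378, with 28 at 0.6 or above, beside 0.741 over all matched genes.

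Long genes of the nervous system were often covered in part. Of 41 neural adhesion genes, 19 (46.3%) touched a shared window, 6 had over 50% inside and 0 lay wholly inside. Their median length was 544921 bp, against 24476.5 bp over all genes, and a longer gene has more chance to touch a window. CNTN1, CNTN4 and CNTN6, contactins of axons, had 80.8%, 80.5% and 70.8% of their length inside, and LRRC4C, a synaptic adhesion gene, 55.0%. Of 45 glutamate, GABA and glycine receptor genes 14 (31.1%) touched, among them the glutamate receptor genes GRM3 (85.5%), GRM7 (72.6%) and GRIN2B (62.5%). Of 94 genes taken by the potassium channel symbol KCN only 8 (8.51%) touched, beside 3.35% of all protein-coding genes. The 8 had a median length of 394129 bp, against 40602 bp over the 94. They were led by KCNH8 (84.1%), KCNN2 (81.3%), KCNA1 (62.9%) and KCNIP4 (44.3%).

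In the remaining families few members touched a shared window, at shares of 1.89% to 8.70% beside the 3.35% of all protein-coding genes. Of 53 clustered protocadherin genes, neuronal adhesion genes with tandem variable exons, 1 touched a shared window, PCDHB15, which lay wholly inside. Of 39 beta-defensin genes 1 did (DEFB112, wholly inside), and of 31 taste and vomeronasal receptor genes 2 did (VN1R2 and VN1R4, both wholly inside). Of 23 cadherin genes 2 did, CDH7 with 14.99% and CDH19 with 12.6% of their length, and these were 8.70% of the family. Of 42 collagen genes 3 did (7.14%), COL22A1 (59.5%), COL5A1 (19.1%) and COL15A1 (3.94%).

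Some microRNA genes also lay in shared windows. Of 1461 hairpins in the RefSeq table used, which covers 21 of the 22 autosomes, 34 (2.33%) lay wholly in shared windows, beside 5.79% of autosomal windows that are shared. The largest set lay at the start of the primate-specific microRNA cluster of chromosome 19, which is known for expression in placenta. There, MIR512-1, MIR512-2, MIR1323, MIR520E and MIR515-1 lay inside, between 53666679 and 53679085, in the 43 kb block chr19:53637001-53680000. The mean log2 of this block, which also touched the homeobox gene DPRX, was 0.96 ± 0.25 (SD over the 8 libraries), with LmnB1_6 replicate 2 lowest at 0.66 and LmnB1_16 replicate 1 highest at 1.42. MIR519E crossed its edge, with 72.6% of the hairpin inside. Of 47 hairpins from there to the end of the neighbouring MIR371A to MIR373 genes, 29 had their first base in a window listed in 7 libraries, and MIR371A, MIR371B, MIR372 and MIR373 were listed in none.

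The mature sequences below show seed relations among these microRNAs, with the seed (bases 2 to 8) in capitals. They are RefSeq sequences on GRCh38.p14, and miR-302e comes from a separate gene on chromosome 11, MIR302E at chr11:7234766-7234837.
hsa-miR-520e-3p: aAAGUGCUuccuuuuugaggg
hsa-miR-302e: uAAGUGCUuccaugcuu
hsa-miR-512-3p: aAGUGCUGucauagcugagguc
hsa-miR-515-3p: gAGUGCCUucuuuuggagcguu
hsa-miR-1323: uCAAAACUgaggggcauuuucu

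The seed AAGUGCU was shared by miR-520e-3p and miR-302e, encoded on different chromosomes. The seeds of miR-512-3p and miR-515-3p, AGUGCUG and AGUGCCU, and that of miR-1323, CAAAACU, each differed from it. Both hairpins MIR512-1 and MIR512-2 encode the same miR-512-3p.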

How the data were processed

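H3K9me3 Cut&Run was deposited as 1 domain list per library, called without pooling replicates. Per the labels' protocols, DNA was isolated with an EpiCypher CUTANA protocol and antibody ab8898. Per the submitters' processing notes, the tools were SICER, deepTools, DESeq2 and DiffBind 3.0.15 and the build hg38 (GRCh38), with no role stated; of the aligner the sources used here say nothing. The deposited lists give, per domain, a count of H3K9me3 reads, a count of input reads, the authors' p-value and adjusted p-value, a log2 enrichment over input and a score. The score in the deposited lists equals 100 times the log2 value. The authors' log2 value is the log2 of reads over input reads with 1 constant added in each list, from which depth relative to input was taken, and all lists share 1 input.

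Counts exist only inside a library's own domains, so no count model was run. Each window took the values of its domain. Members and gene lists were chosen with earlier results of these data known. Named were the 10 longest blocks, the 10 most enriched of at least 10 kb, the 10 longest genes wholly inside, up to 4 genes per list (1 such gene is not reported here) and 3 bins per direction; other names and the miRNAs were chosen after their values were seen. Gene positions are RefSeq on GRCh38.p14. Bins with at least 10 listed windows in every library entered limma 3.58.1 (R 4.3.3). The bin value was the mean log2 value over the library's own listed windows minus the library's median bin. Clones were a random block, and p-values were adjusted by Benjamini-Hochberg. The scripts (Python 3.11.15, numpy 2.4.6, pandas 2.3.3) were tested on simulated data. Over 229 domains with the same borders in both lists, the counts of the mCherry_3 replicates did not differ beyond sampling noise (chi-square p = 0.197). For LmnB1_16, LmnB1_6 and mCherry_4 the chi-square p was 0.0380, 0.000368 and 0.0162, over 648, 61 and 28 such domains. Domains with other borders did not enter, so the test does not cover the whole lists. The alternatives tried left out each library, changed the lists, the bins, the centring and the block, or counted the mCherry_3 pair as 1 library.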

Additional observations from a re-analysis of the deposited data

Results flagged for a closer look

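Among the 40 groups of 4 libraries examined, 7 had a library apart from the other 3 of its construct. By chance a single group does so in about 1 in 20 cases. The groups overlap, since enrichment over shared windows was also examined by block class, so the 7 cannot be set against that rate. LmnB1_6 replicate 2 listed 70.5% of the windows found in the 7 other libraries, against 99.0% to 99.9% in the other LmnB1 libraries. It also listed 9.457 Mb on chromosome 16, against 19.867 to 21.079 Mb, and 3.189 Mb on chromosome 18, against 23.121 to 24.828 Mb. In mCherry_4 replicate 2 the mean log2 enrichment over shared windows was 0.736, against 0.911 to 0.946 in the other mCherry libraries. It stood apart likewise in blocks with no protein-coding gene (0.734), with olfactory receptor genes (0.742) and with zinc finger genes (0.796).

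Chromosome X was left out of the windows above. There, 1564 windows were listed in all 8 libraries, 2.63% of the 59.405 Mb listed in any, beside 21.7% on the autosomes. The length listed on X ran from 6.801 Mb in LmnB1_6 replicate 2 to 41.557 Mb in mCherry_3 replicate 2.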

How the results depend on the processing

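The number of shared windows ranged from 166480 to 235916 with 1 library left out, and that of blocks from 5737 to 8404, the highest count of windows being without LmnB1_6 replicate 2. Using the highest-scoring 50% of each list left 38471 windows in 1264 blocks. Cutting all lists by score to the covered length of the shortest list left 91641 windows in 3104 blocks. Filling gaps under 10 kb within each library gave 2548 blocks, and joining blocks under 10 kb apart gave 2631. The log2 difference between constructs ranged from 0.0367 to 0.195 with 1 library left out and stayed positive under all 15 alternatives. Limma called 0 bins under all 16 alternatives. The replicate block, with the replicate number as a fixed term, called 0 bins, with 60 at an unadjusted p under 0.05. Same-numbered replicates of different clones had deviations correlated between 0.02 and 0.21 over the tested bins. The labels give no shared source for a number, and not every correlation was over 0.1, so the numbers were not treated as pairs. These deviations were taken after centring, so a shift of a whole library does not enter them. In every clone, replicate 2 had a lower mean log2 over shared windows and a shorter listed length than replicate 1. Whether this order has a shared source was not tested. Whether the listed length depended on depth relative to input was not tested. LmnB1_6 replicate 2 listed 349.664 autosomal Mb at a depth of 0.902 and mCherry_4 replicate 2 301.882 Mb at 0.859. The shallowest library, mCherry_4 replicate 1, listed 399.943 Mb at 0.421. The remaining lists ran from 486.084 Mb at 0.816 (mCherry_3 replicate 2) to 616.417 Mb at 0.944 (LmnB1_6 replicate 1). A window missing from a list may lie just below the threshold of the authors.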
